A study of Mus musculus with 9 samples.

Results

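Heat shock proteins, their J protein partners and the CCT chaperonin form the machinery that folds newly made and damaged proteins. The members were chosen by gene symbol: small and large heat shock proteins (Hspa, Hspb, Hspd, Hspe, Hsph and Hsp90 genes), class A, B and C J proteins (Dnaja, Dnajb and Dnajc genes), the subunits of CCT including Tcp1, the Bag1 to Bag6 cofactors, and the heat shock factors Hsf1 and Hsf2, without pseudogene entries. The rule found 91 of 55291 genes. Of these, 89 had reads and 80 passed the filter on low counts and were tested. Hspa1a, Hspa1b and Dnajb1 were set apart as the 3 inducible members, and the other 88 are called constitutive here.

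The cells were acute myeloid leukaemia (AML) cells of the mouse, with RNA-seq libraries in 3 groups of 3: cells grown in culture, cells taken from the bone marrow (marrow below) of wild-type recipients, and cells taken from the lungs of such mice. All 9 libraries carry the same genotype, Trp53(R172H/Δ), a missense allele of p53 over an allele written as Δ, so no group has wild-type p53. The labels give neither the age or sex of the mice, nor how the leukaemia cells were separated from host cells, nor whether libraries of a group came from separate cultures or animals. The p-values below therefore measure only the spread between these libraries, which may be technical.

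In the folding cycle, a J protein delivers a client to HSP70 and triggers ATP hydrolysis, and nucleotide exchange factors of the HSP110 and BAG families release it. HSP90 takes over many kinases and receptors, and the CCT ring folds actin and tubulin. Heat or protein damage frees HSF1, which binds inverted repeats of the letters GAA in front of genes such as Hspa1a and Hspa1b, whereas Hspa8 (HSC70) serves most cells all the time. In red cell precursors HSP70 is known to shield GATA1 from caspase cleavage.

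Sequences upstream of the inducible members are shown because heat shock factors are known to act through such sequences. They are the 250 bases before the annotated start, from RefSeq on build GRCm38.p6, at chr17:34959239-34959488 (minus strand) for Hspa1b, chr17:34972157-34972406 (minus strand) for Hspa1a and chr8:83607925-83608174 (plus strand) for Dnajb1. Capitals mark GAANNTTC or TTCNNGAA, the 2 arrangements of a pair of inverted GAA repeats, each of which reads the same on both strands.
Hspa1b: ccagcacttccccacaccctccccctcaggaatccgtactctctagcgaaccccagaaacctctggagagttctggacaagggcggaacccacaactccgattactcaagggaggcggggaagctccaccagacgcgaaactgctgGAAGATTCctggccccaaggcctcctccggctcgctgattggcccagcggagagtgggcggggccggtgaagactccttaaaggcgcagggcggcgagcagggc
Hspa1a: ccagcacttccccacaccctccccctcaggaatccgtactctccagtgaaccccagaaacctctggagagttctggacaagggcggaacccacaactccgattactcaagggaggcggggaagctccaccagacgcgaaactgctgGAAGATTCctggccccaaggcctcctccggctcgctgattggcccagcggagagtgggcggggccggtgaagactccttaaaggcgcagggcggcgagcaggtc
Dnajb1: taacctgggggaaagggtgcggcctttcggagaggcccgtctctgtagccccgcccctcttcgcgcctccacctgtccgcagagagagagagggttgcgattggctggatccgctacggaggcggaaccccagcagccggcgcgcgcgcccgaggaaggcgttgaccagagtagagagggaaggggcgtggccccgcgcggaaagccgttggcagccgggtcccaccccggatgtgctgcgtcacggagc
The Hspa1a and Hspa1b stretches differ at 3 of 250 bases and hold 1 match each, starting 104 bases before the start, while these letters do not occur in the Dnajb1 window.

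Matches to the 8 letters also occurred in front of other members, of which 4 are shown in 30 bases each to set their arrangement beside the one above. They lie at chr5:149636351-149636380 (minus strand) for Hsph1, chr4:40722333-40722362 (plus strand) for Dnaja1, chr1:55088053-55088082 (plus strand) for Hspe1 and chr5:29735843-29735872 (plus strand) for Dnajb6.
Hsph1: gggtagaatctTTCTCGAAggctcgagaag
Dnaja1: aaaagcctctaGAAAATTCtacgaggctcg
Hspe1: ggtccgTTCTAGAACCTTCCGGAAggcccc
Dnajb6: cagctccgaGAATCTTCCGGAAcgctagac
Hspe1 holds 3 overlapping matches and Dnajb6 holds 2. Either form was present in the upstream windows of 12 of the 73 members in the RefSeq table (16.4%) and in 12.8% of all 32851 promoters. The run of 3 repeats, GAANNTTCNNGAA or its reverse complement TTCNNGAANNTTC, was present in 2 members (2.74%) and in 0.466% of all promoters. For the members only the start site nearest the start of the gene model was used. The share over all promoters covers every entry, so a gene with several start sites can count more than once. A match is a description of the window, not a binding site.

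Depth was 27485111 to 38761363 counted reads per library, and levels are CPM (read counts scaled to a common library size), with library sizes adjusted by TMM factors. The members together took 1.62% ± 0.0205 of reads in culture, 2.11% ± 0.0692 in marrow and 2.15% ± 0.161 in lung (SD, n = 3). Among markers of the labelled cell type, Kit (mean 1167 CPM in culture, 633 in marrow, 631 in lung), Myb and Gata1 were abundant, while Cd34 (0.0360 CPM in culture), Itgam (0.0205 CPM in culture) and Cd33 (0 in culture) were at or near 0 there. The summed level of 10 neutrophil granule genes was 1.28 to 2.43 CPM in culture, 336 to 2063 in marrow and 11.5 to 83.5 in lung. That of 8 macrophage and monocyte genes was 3.08 to 3.62, 38.6 to 306 and 26.7 to 70.9 CPM, with C1qa and C1qc at 0 in culture. That of 8 lung epithelial genes was 0.556 to 1.02 CPM in culture (Sftpd, Epcam and Cdh1 at 0), 0.646 to 0.898 in marrow (Sftpa1 at 0) and 14.9 to 83.7 in lung. In such bulk RNA, fewer cells of a type and less RNA per cell cannot be told apart. The part of other cells in the results below was not tested.

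Of the inducible members only Hspa1b differed between all 3 sources of cells. Hspa1b was lowest in culture, higher in marrow and highest in lung. Hspa1a was higher in both tissues than in culture and overlapped between them. Dnajb1 was expressed in all 9 libraries and differed only between lung and culture. A member is said to have risen or fallen where edgeR's quasi-likelihood test gave a Benjamini-Hochberg adjusted p under 0.05 over all 15066 genes tested, and ± after a log2 change is its standard error.

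Hspa1b encodes the stress-inducible cytosolic HSP70 (chromosome 17, bases 34956436 to 34959238, minus strand, GRCm38, protein coding). Its level was 8.64, 7.51 and 6.29 CPM in culture, 16.9, 12.2 and 26.3 CPM in marrow, and 49.4, 46.6 and 66.8 CPM in lung. The 3 groups did not overlap, and replicate 3 was the highest of both tissue groups. Lung exceeded marrow by 1.55 ± 0.26 on the log2 scale (2.93-fold, adjusted p = 0.0028). Marrow exceeded culture by 1.31 ± 0.27 (2.48-fold, adjusted p = 0.0020), and lung exceeded culture by 2.86 ± 0.28 (7.26-fold, adjusted p = 1.5e-05).

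Hspa1a, its near-identical neighbour (chromosome 17, bases 34969190 to 34972156, minus strand), was counted at a much lower level: 0.297, 0.0923 and 0.142 CPM in culture, 1.101, 0.465 and 2.19 in marrow, and 1.36, 0.816 and 1.90 in lung. The culture values rest on 8, 3 and 4 reads, those of marrow on 37, 15 and 88, and those of lung on 52, 25 and 60. Both tissues lay above culture and overlapped each other. Marrow exceeded culture by 2.84 ± 0.62 on the log2 scale (adjusted p = 0.0016) and lung exceeded culture by 2.94 ± 0.62 (adjusted p = 0.0015), whereas lung against marrow was 0.11 ± 0.50 (adjusted p = 0.90).

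The counts of the 2 copies are uncertain, because 58.8% of the 50-base windows of the Hspa1a transcript occur unchanged in Hspa1b and how reads that match both were assigned is not given in the sources used here. Hspa1a also overlaps Gm20481 on the opposite strand, which had 0 reads in every library. With the counts of both copies added together, a choice made after seeing the data, the sum differed by 1.49 ± 0.27 between lung and marrow (log2, adjusted p = 0.0046). It differed by 1.37 ± 0.29 between marrow and culture (adjusted p = 0.0024) and by 2.86 ± 0.29 between lung and culture (adjusted p = 2.8e-05). Hspa1a supplied 1.21% to 7.67% of the reads of the sum, with the highest share in marrow replicate 3.

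Dnajb1 (HSP40, the J protein that works with inducible HSP70; chromosome 8, bases 83608193 to 83612653, plus strand) was at 133, 130 and 132 CPM in culture, 141, 142 and 191 CPM in marrow, and 176, 162 and 223 CPM in lung. All tissue libraries lay above all culture libraries, and the tissues overlapped. Lung exceeded culture by 0.51 ± 0.13 on the log2 scale (adjusted p = 0.0060). Marrow against culture was 0.26 ± 0.13 (adjusted p = 0.10) and lung against marrow 0.24 ± 0.13 (adjusted p = 0.19). Leaving out marrow replicate 3 brought lung against marrow to 0.39 with adjusted p = 0.025.

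**Figure D1:**
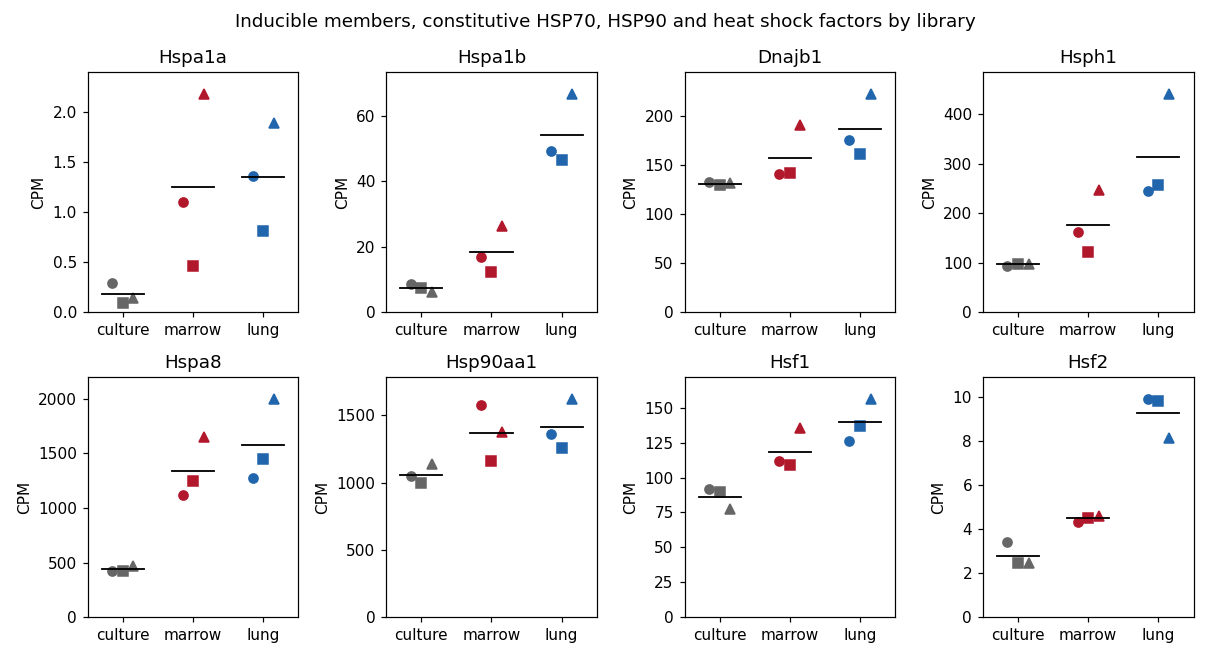
CPM of 8 members in each library, with circles, squares and triangles for replicates 1, 2 and 3 and a line at the group mean. Hspa1b rises from 6.29 to 8.64 CPM in culture to 46.6 to 66.8 CPM in lung, and replicate 3 of both tissues is the highest for Hspa1a, Hspa1b, Dnajb1, Hsph1, Hspa8 and Hsf1.

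Like Hspa1a, Hspa8 rose in both tissues against culture and did not pass between the tissues. Hspa8, the constitutive HSP70 (chromosome 9, bases 40800984 to 40810087, plus strand), was at 422, 425 and 471 CPM in culture, 1124, 1244 and 1653 CPM in marrow, and 1278, 1446 and 1999 CPM in lung. Every tissue library was above every culture library, and the tissues overlapped. It rose by 1.61 ± 0.18 on the log2 scale from culture to marrow (3.05-fold, adjusted p = 2.2e-05) and by 1.84 ± 0.18 from culture to lung (3.58-fold, adjusted p = 1.1e-05). Lung against marrow was 0.23 ± 0.17 (adjusted p = 0.36).

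Within each library, the log2 ratio of Hspa1b to Hspa8 in CPM was −5.61, −5.82 and −6.23 in culture, −6.05, −6.68 and −5.97 in marrow, and −4.69, −4.96 and −4.90 in lung. The lung libraries lay above the other 6, and culture and marrow overlapped. Mean differences were 1.38 between lung and marrow, −0.35 between marrow and culture and 1.04 between lung and culture, given as a description without a test. The ratio of Hspa1a to Hspa8 had means of −11.4 ± 0.87 in culture, −10.3 ± 0.95 in marrow and −10.2 ± 0.49 in lung (SD, n = 3), and the ranges overlapped. With 1 CPM added to both genes the difference of that ratio between marrow and culture turned from 1.13 to −0.72, and between lung and culture from 1.21 to −0.83. The ratio of Dnajb1 to the constitutive J protein gene Dnaja2 was −0.78 ± 0.031 in culture, −0.55 ± 0.38 in marrow and −0.50 ± 0.17 in lung. Its lung values all exceeded its culture values, and those of marrow spanned both.

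**Figure D2:**
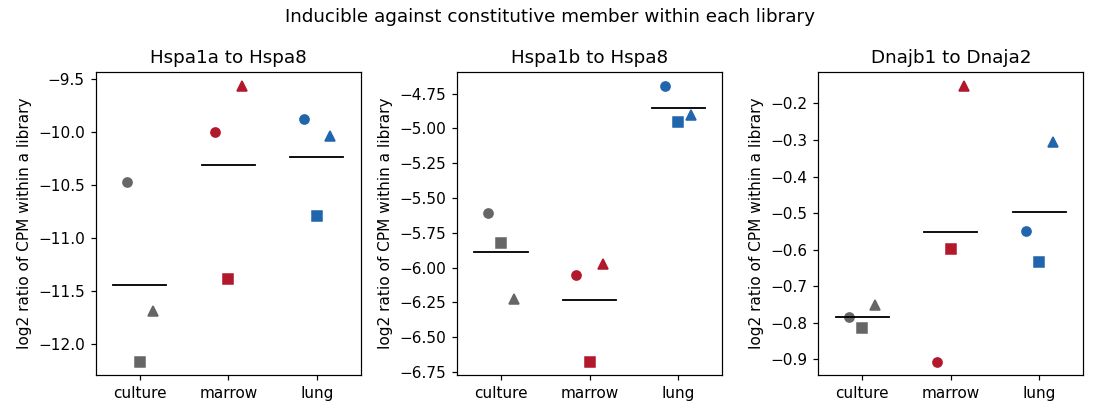
Log2 ratio of an inducible to a constitutive member in each library, with circles, squares and triangles for replicates 1, 2 and 3 and a line at the group mean. The Hspa1b to Hspa8 ratio is −4.96 to −4.69 in lung and −6.68 to −5.61 in the other 6 libraries.

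Compared per kilobase of exon, Hspa8 stood at 102, 312 and 366 CPM per kb in culture, marrow and lung, Dnajb1 at 41.0, 49.3 and 58.4, Hspa1b at 2.67, 6.59 and 19.4, and Hspa1a at 0.0597, 0.422 and 0.458. Constitutive HSP70 message was far above inducible HSP70 message in each group. Hsp90ab1, which encodes constitutive HSP90, led all members in each group (517 ± 11.5, 710 ± 68.8 and 725 ± 112 CPM per kb, SD, n = 3). In culture it was followed by Bag1, Cct8 and Hspa9 at 310 ± 7.54, 304 ± 6.73 and 303 ± 4.40 CPM per kb, which lay within about an SD of each other. In lung Cct8 and Hspa8 followed at 385 ± 28.8 and 366 ± 87.7, a difference within the SD of Hspa8.

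Over all members, 14 rose and 4 fell in lung against marrow, 32 rose and 22 fell in marrow against culture, and 33 rose and 16 fell in lung against culture. Of all genes tested, 25.3% passed in lung against marrow (14.2% higher, 11.1% lower), 60.5% in marrow against culture (30.7% higher, 29.8% lower) and 54.9% in lung against culture (27.9% higher, 27.0% lower). The median log2 change of the 80 tested members was 0.08, 0.16 and 0.19 in these comparisons, beside −0.01, 0.05 and 0.02 over all genes. The comparisons share groups, so their values are set side by side and not counted as independent. In lung against marrow the groups did not overlap for 17 members that were higher and 13 that were lower, a pattern that 36.6% of all genes showed in either direction (18.5% higher, 18.1% lower). In marrow against culture it held for 34 higher and 24 lower members, beside 67.2% of all genes (34.3% higher, 32.9% lower), and in lung against culture for 36 and 19, beside 66.8% (34.0% higher, 32.9% lower). With upper-quartile scaling the calls in lung against marrow were 12 up and 7 down, and in the same comparison leaving out 1 library at a time gave 10 to 17 up and 2 to 7 down. The highest down count came without marrow replicate 1, and the lowest without marrow replicate 2, lung replicate 1 or lung replicate 2.

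Of the 3 inducible members 1 rose in lung against marrow, 2 in marrow against culture and 3 in lung against culture, with median log2 changes of 0.24, 1.31 and 2.86. Of the 77 other members tested, 13 rose and 4 fell, 30 rose and 22 fell, and 30 rose and 16 fell, with medians of 0.04, 0.15 and 0.14. In the same order, 14.2% of all genes rose and 11.1% fell, 30.7% rose and 29.8% fell, and 27.9% rose and 27.0% fell. Of 7 tested members that textbooks name as further targets of HSF1, 1 rose and 1 fell in lung against marrow, 6 rose in marrow against culture and 6 rose in lung against culture. They were Hsph1, Hsp90aa1, Bag3, Dnaja1, Hspd1, Hspe1 and Hspa8, the constitutive gene of the ratios above. This list was drawn up for the present report and is not a complete set of heat-responsive members. Dnajb4, called heat-responsive below, is not on it. Its log2 change was −1.34 in marrow and −0.60 in lung against culture, and 0.75 in lung against marrow. In lung against marrow the rise of Dnaja1 and the fall of Hspe1 were lost under 6 and 5 of 18 alternatives. Against culture the rises of Hsph1 (marrow) and Hsp90aa1 (marrow and lung) were lost under 6, 3 and 4. Immediate early genes, which respond to stimulation and to handling of cells, differed between the same groups. The summed level of 11 such genes was 738 to 819 CPM in culture, 173 to 189 in marrow and 1954 to 2857 in lung. All 11 rose in lung against marrow and fell in marrow against culture, and their relation to the inducible members was not tested.

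**Figure D3:**
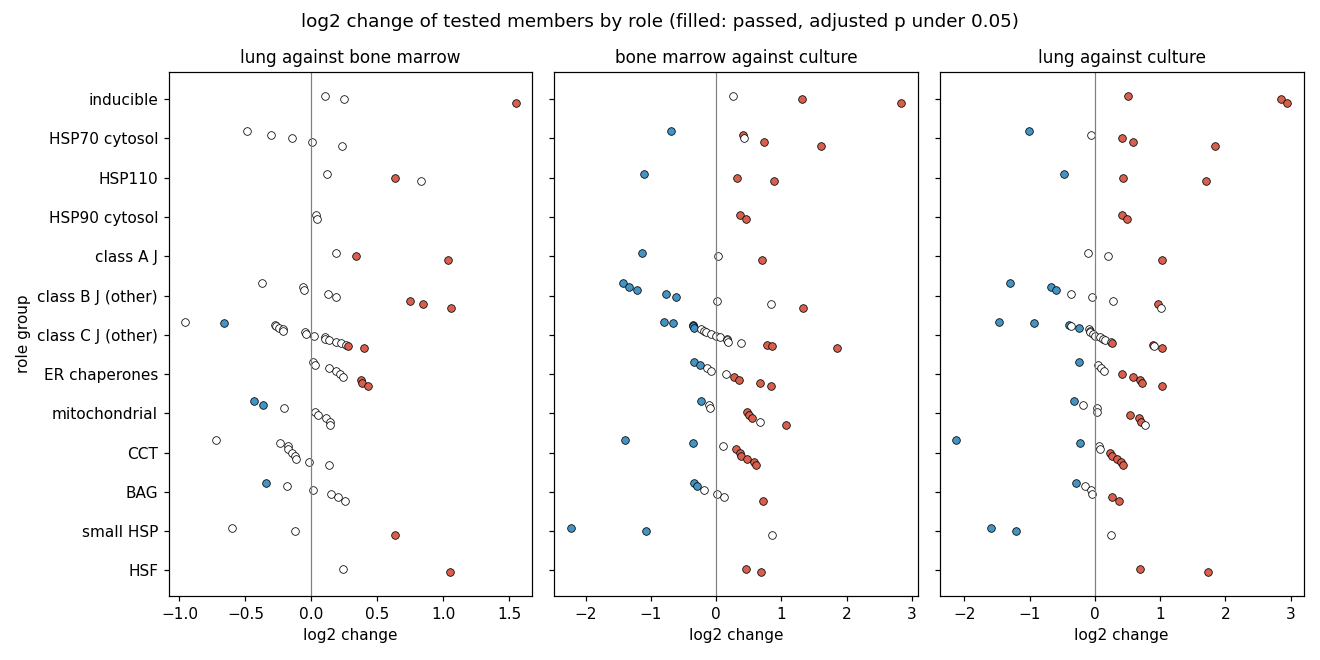
Log2 change of each tested member, grouped by role, in the 3 comparisons, with filled points for adjusted p under 0.05 (red higher, blue lower) and open points for the rest. J proteins of the endoplasmic reticulum and mitochondria stand with those compartments, except Dnajb12 and Dnajb14, which stand with class B. Of the inducible members only Hspa1b passes in lung against marrow, and all 3 pass in lung against culture.

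The heat shock factors rose in both tissues against culture. Hsf1, the master regulator of the stress response, was at 91.9, 89.5 and 77.2 CPM in culture, 111, 109 and 135 CPM in marrow and 126, 137 and 156 CPM in lung. It rose by 0.46 ± 0.11 on the log2 scale in marrow and 0.70 ± 0.11 in lung (adjusted p = 0.0023 and 0.00011 against culture), and lung against marrow was 0.24 ± 0.11 (adjusted p = 0.12, and 0.034 without marrow replicate 3). Hsf2, a paralogue that can form mixed trimers with HSF1, was at 3.41, 2.46 and 2.49 CPM in culture, 4.34, 4.52 and 4.62 CPM in marrow, and 9.93, 9.82 and 8.16 CPM in lung. The 3 groups did not overlap. Lung exceeded marrow by 1.05 ± 0.17 (adjusted p = 0.0011), marrow exceeded culture by 0.69 ± 0.18 (adjusted p = 0.0048), and lung exceeded culture by 1.74 ± 0.18 (adjusted p = 3.3e-06).

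Among the 5 tested cytosolic and nuclear HSP70 genes other than the inducible pair, 3 rose and 1 fell in each tissue against culture. Over all genes, 30.7% rose and 29.8% fell in marrow against culture, and 27.9% and 27.0% in lung against culture. In lung against marrow 0 of the 5 passed under edgeR, DESeq2 or limma-voom, and 0 had an unadjusted edgeR p under 0.05. There 25.3% of all genes passed under edgeR. Hspa14, a ribosome-bound HSP70, was at 149 ± 2.65 CPM in culture, 197 ± 4.20 in marrow and 198 ± 15.2 in lung (SD, n = 3). Hspa2, best known from testis, fell from 17.6 ± 0.566 CPM in culture to 10.9 ± 2.09 in marrow and 8.78 ± 0.949 in lung (log2 change −0.69 and −1.002, adjusted p = 0.0012 and 8.7e-05). Its 9 values showed culture above both tissues.

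The HSP110 exchange factors, which recharge HSP70, split in direction. Hsph1 was at 92.7, 98.2 and 97.7 CPM in culture, 162, 121 and 247 CPM in marrow, and 245, 256 and 441 CPM in lung. Its tissue libraries all exceeded culture, and lung replicate 1 lay just below marrow replicate 3. Hsph1 rose by 1.71 ± 0.30 on the log2 scale in lung against culture (adjusted p = 0.0018) and by 0.88 ± 0.30 in marrow against culture (adjusted p = 0.034). The latter call was lost with no filter on low counts (adjusted p = 0.11), without any 1 of the culture libraries (0.078 to 0.095), without marrow replicate 1 (0.065) and without marrow replicate 3, when the change was 0.56 (0.085). Lung against marrow was 0.83 ± 0.30 (adjusted p = 0.079).

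Hspa4, the most abundant HSP110 gene per kilobase, rose from 438 ± 13.5 CPM in culture to 547 ± 38.2 in marrow and 592 ± 20.9 in lung. Hspa4l, its testis-enriched relative, went the other way, with 335, 351 and 349 CPM in culture, 149, 144 and 188 CPM in marrow, and 214, 251 and 280 CPM in lung. Culture was highest, marrow lowest and no groups overlapped. The log2 change was −1.11 ± 0.11 in marrow and −0.48 ± 0.11 in lung against culture, and 0.63 ± 0.11 in lung against marrow (adjusted p = 2.3e-06, 0.0027 and 0.0018).

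Both cytosolic HSP90 genes rose modestly in the tissues. Hsp90ab1 was at 1524, 1539 and 1589 CPM in culture, 2365, 1985 and 2034 CPM in marrow, and 2087, 1892 and 2545 CPM in lung. It exceeded culture by 0.46 ± 0.11 in marrow and 0.49 ± 0.11 in lung on the log2 scale (adjusted p = 0.0021 and 0.0016), and the tissues differed by 0.03 ± 0.11 (adjusted p = 0.86). Hsp90aa1, the stress-responsive HSP90, rose by 0.37 in marrow and 0.41 in lung (adjusted p = 0.015 and 0.0089). The marrow call was lost without culture replicate 1, culture replicate 2 or marrow replicate 1, and the lung call without culture replicate 1, culture replicate 2 or lung replicate 3, with adjusted p up to 0.081 and 0.070.

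Among class A J proteins, which have a zinc finger that binds clients, Dnaja1 and Dnaja4 moved differently. Dnaja4 was at 66.8, 67.6 and 65.2 CPM in culture, 27.5, 31.3 and 32.5 CPM in marrow, and 53.4, 68.7 and 64.6 CPM in lung. Marrow lay below the other groups, which overlapped. It fell by 1.13 ± 0.11 on the log2 scale from culture to marrow (adjusted p = 9.5e-07) and was 1.03 ± 0.11 higher in lung than in marrow (adjusted p = 2.7e-05). Lung against culture was −0.10 ± 0.10 (adjusted p = 0.45). Dnaja1 rose from 93.5 ± 2.70 CPM in culture to 152 ± 17.6 in marrow and 192 ± 23.4 in lung (SD, n = 3). Its rise of 0.34 in lung against marrow (adjusted p = 0.027) was lost without culture replicate 1, culture replicate 2, marrow replicate 2 or lung replicate 3, with adjusted p up to 0.13. Dnaja2, the most abundant of the class per kilobase, was at 226 ± 3.83, 230 ± 29.0 and 261 ± 12.9 CPM and did not pass in any comparison (lung against culture 0.21, adjusted p = 0.060, unadjusted p = 0.034).

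The class B J proteins are described without Dnajb1 and without Dnajb9 and Dnajb11, which are counted with the endoplasmic reticulum. Of the 8 tested, 1 rose and 5 fell in marrow against culture, and with those of the endoplasmic reticulum 2 of 10 rose and 5 fell. Across all genes, 30.7% rose and 29.8% fell in that comparison. In lung against marrow 3 of the 8 rose and 0 fell (1 fell at an unadjusted p under 0.05, 0 under DESeq2 or limma-voom), and in lung against culture 1 rose and 3 fell. Shares over all genes there were 14.2% and 11.1% in lung against marrow, and 27.9% and 27.0% in lung against culture. Dnajb4, a heat-responsive relative of Dnajb1, was at 52.7, 50.004 and 53.9 CPM in culture, 21.9, 20.3 and 19.4 CPM in marrow, and 37.7, 31.3 and 34.4 CPM in lung. No 2 groups overlapped. Its log2 change was −1.34 ± 0.10 in marrow against culture (adjusted p = 1.2e-07), 0.75 ± 0.10 in lung against marrow (adjusted p = 0.00024) and −0.60 ± 0.10 in lung against culture (adjusted p = 0.00018).

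Dnajb2, which guides ubiquitinated clients to the proteasome, was at 29.9, 29.7 and 29.2 CPM in culture, 10.4, 11.6 and 16.3 CPM in marrow, and 18.2, 20.5 and 30.5 CPM in lung. Marrow was below the other groups. It fell by 1.21 ± 0.20 on the log2 scale in marrow against culture (adjusted p = 0.00024) and was 0.85 ± 0.20 higher in lung than in marrow (adjusted p = 0.0098). Dnajb14, an endoplasmic reticulum membrane J protein facing the cytosol, had 39.8 ± 2.31 CPM in culture, 14.8 ± 0.954 in marrow and 16.2 ± 1.42 in lung, so that both tissues were low. Its relative Dnajb12 fell likewise, by 0.62 and 0.67 on the log2 scale in marrow and lung. Dnajb13, known from cilia and sperm flagella, was the 1 of these 8 that rose against culture, from 8.45 ± 1.12 CPM to 21.3 ± 2.30 in marrow and 16.4 ± 3.35 in lung. It overlaps Ucp2 on the opposite strand, and its reads cannot be told apart from those of that gene.

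Altogether 8 members fell in marrow against culture and rose in lung against marrow: Hspa13, Hspa4l, Dnaja4, Dnajb2, Dnajb4, Dnajb5, Dnajc13 and Hspb6. Of all 15066 genes 9.05% showed both calls, near the 10% of the 80 tested members. This grouping was made after the values were seen, and both of its comparisons use the marrow libraries. Of these, Hspa13, Dnajc13 and Hspb6 lost the call in lung against marrow under at least 8 of the 18 alternatives. Hspa13 lost it without any 1 of 8 libraries, the exception being marrow replicate 3, and the lost calls had adjusted p of up to 0.13. Dnajc13 lost it without any 1 of 7 libraries (adjusted p up to 0.17) and Hspb6 without any 1 of 6 (up to 0.16). The neutrophil granule genes were highest in the same marrow libraries, and their part in the lower values was not tested.

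**Figure D4:**
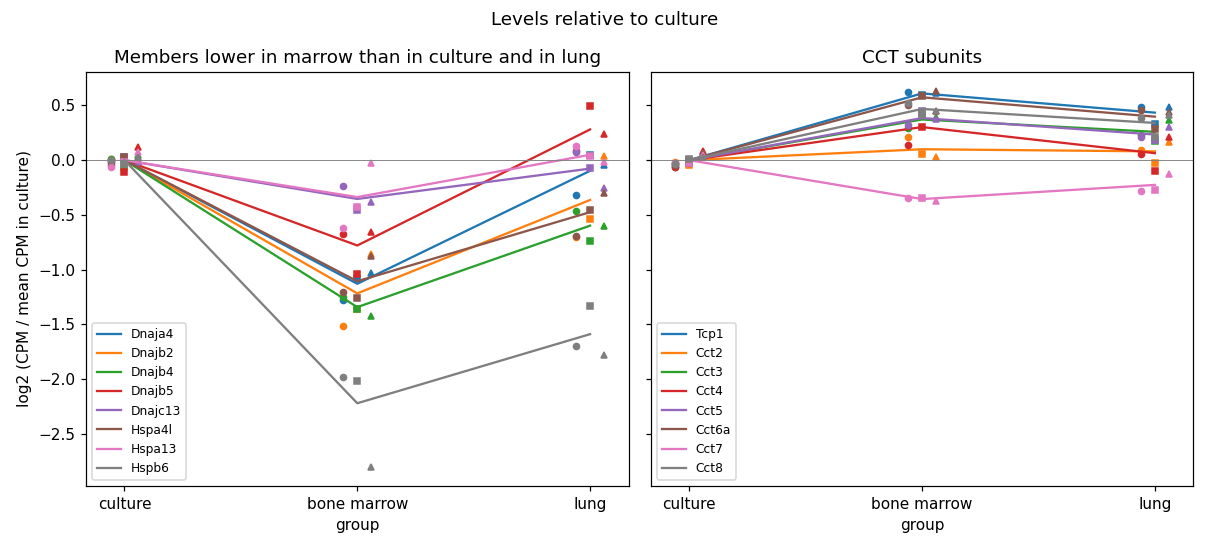
Log2 ratio of CPM to the mean culture level in each library (circles, squares and triangles for replicates 1, 2 and 3) and of the group means (lines), for the 8 members that were lower in marrow and for 8 CCT subunits. Hspb6 falls furthest and Dnaja4 returns to near its culture level in lung, whereas all CCT subunits shown except Cct7 lie above 0 in marrow.

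The class C J proteins are a mixed class that shares only the J domain. Of all 26 tested, 7 rose and 6 fell in marrow against culture, 6 and 6 in lung against culture, and 2 and 2 in lung against marrow. Without those counted with the endoplasmic reticulum or mitochondria, 18 remained, of which 3 rose and 5 fell, 3 and 4, and 2 and 1. In the same order, 30.7% of all genes rose and 29.8% fell, 27.9% and 27.0%, and 14.2% and 11.1%. Dnajc2, a ribosome-associated partner of Hspa14, rose from 126 ± 4.34 CPM in culture to 218 ± 20.9 in marrow and 234 ± 17.1 in lung (log2 change 0.78 and 0.89, adjusted p = 4.3e-06 and 1.8e-06). Dnajc27 rose from 15.3 ± 0.557 CPM to 27.5 ± 2.84 and 31.3 ± 2.18. Dnajc28 stepped down from 12.03 ± 0.286 CPM in culture to 6.90 ± 0.455 in marrow and 4.34 ± 0.684 in lung. It fell in all 3 comparisons, by 0.66 ± 0.15 on the log2 scale in lung against marrow (adjusted p = 0.0071). Dnajc12 fell from 11.3 ± 0.750 CPM to 7.16 ± 0.269 and 5.93 ± 0.649. Dnajc21, a factor of ribosome maturation in the cytosol, rose from 57.4 ± 6.61 CPM in marrow to 75.8 ± 8.29 in lung (log2 change 0.40, adjusted p = 0.014), a call lost without marrow replicate 2 (0.061) or lung replicate 3 (0.056).

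Of the 9 members counted here with the endoplasmic reticulum 3 rose and 0 fell in lung against marrow, beside 14.2% and 11.1% of all genes (0 fell at an unadjusted edgeR p under 0.05, or under DESeq2 or limma-voom). In marrow against culture 4 rose and 2 fell, beside 30.7% and 29.8%, and in lung against culture 5 and 1, beside 27.9% and 27.0%. Dnajb14, of the membrane of that compartment, and its relative Dnajb12 are counted with class B and not among these 9. Both fell in both tissues against culture. The rise of Hspa13 in lung against marrow was lost under 10 of the 18 alternatives. The fall in lung against culture, that of Dnajc10, was lost under 9 of them (adjusted p up to 0.15). The falls of Hspa13 and Dnajc10 in marrow were lost under 6 and 8, among them without culture replicate 2, culture replicate 3 or marrow replicate 1, and in addition without marrow replicate 2 for Hspa13 and marrow replicate 3 for Dnajc10 (adjusted p up to 0.13 for both). Hspa5 (BiP, the HSP70 of that compartment) was at 676, 712 and 708 CPM in culture, 691, 766 and 875 CPM in marrow, and 1025, 942 and 1171 CPM in lung. Lung lay above the other groups, which overlapped. It was 0.43 ± 0.10 higher in lung than in marrow on the log2 scale and 0.58 ± 0.10 higher than in culture (adjusted p = 0.0077 and 0.00024). Dnajb11, a BiP partner, rose stepwise from 115 ± 4.66 CPM in culture to 147 ± 7.85 in marrow and 191 ± 15.9 in lung. Dnajc25 rose from 6.50 ± 1.04 CPM in culture to 11.6 ± 0.420 and 13.2 ± 0.474, although it overlaps a gene model on its own strand.

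Of the 8 mitochondrial members 4 rose and 1 fell in marrow against culture and 0 rose and 2 fell in lung against marrow (0 rose at an unadjusted p under 0.05 or under DESeq2 or limma-voom). Shares over all genes were 30.7% and 29.8% in marrow against culture, and 14.2% and 11.1% in lung against marrow. Hspe1 and Hspd1, the cochaperonin and chaperonin that close the mitochondrial folding chamber, start from a shared stretch on opposite strands and their gene models overlap by 111 bases. Hspe1 was at 125, 112 and 115 CPM in culture, 218, 261 and 260 CPM in marrow, and 170, 174 and 228 CPM in lung. Culture was lowest, and the tissues overlapped. It rose by 1.07 ± 0.11 on the log2 scale in marrow against culture (adjusted p = 3.5e-06). It was 0.37 ± 0.11 lower in lung than in marrow (adjusted p = 0.029), a call lost without marrow replicate 2 or 3 or lung replicate 1 or 2, with adjusted p up to 0.11. Hspd1 was at 493 ± 8.94 CPM in culture, 717 ± 78.0 in marrow and 790 ± 70.5 in lung, and lung against marrow was 0.14 (adjusted p = 0.29).

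Dnajc19, which belongs to the import motor of the inner membrane, was at 69.0, 60.0 and 60.6 CPM in culture, 83.4, 92.8 and 85.8 CPM in marrow, and 61.8, 65.3 and 66.4 CPM in lung. Marrow was higher than the other groups, which overlapped. It fell by 0.44 ± 0.09 on the log2 scale in lung against marrow (adjusted p = 0.0032). Hspa9 (mortalin, the mitochondrial HSP70) was the most abundant mitochondrial member per kilobase and had 1304.2 ± 19.0, 1216.6 ± 211 and 1339.0 ± 111 CPM, and did not pass in any comparison (unadjusted edgeR p 0.22 to 0.73).

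Of the 9 tested CCT subunits 6 rose and 2 fell in marrow against culture, Cct7 and Cct6b being those that fell, and Cct2 did not pass. Of all genes, 30.7% rose and 29.8% fell in that comparison. The shares were 27.9% and 27.0% in lung against culture, and 14.2% and 11.1% in lung against marrow. The rise of Cct4 was lost without culture replicate 1, culture replicate 2 or marrow replicate 3 (adjusted p up to 0.085), and those of Cct3 and Cct5 in lung without culture replicate 1, culture replicate 2 or lung replicate 3 (up to 0.095 and 0.12). In lung 5 rose and 2 fell against culture, and in lung against marrow 0 of 9 passed under edgeR, DESeq2 or limma-voom, although Cct4, Cct6a and Tcp1 had unadjusted p of 0.028, 0.040 and 0.035. Tcp1 was at 591, 608 and 651 CPM in culture, 950, 934 and 941 CPM in marrow, and 862, 775 and 864 CPM in lung. No groups overlapped, and marrow was highest. Its log2 change was 0.61 ± 0.08 in marrow and 0.43 ± 0.08 in lung against culture (adjusted p = 1.2e-05 and 0.00027). Cct7 went the other way, from 756 ± 24.0 CPM in culture to 591 ± 5.42 in marrow and 646 ± 38.7 in lung (log2 change −0.36 and −0.23, adjusted p = 0.00082 and 0.017). The lung call of Cct7 was lost without culture replicate 3, lung replicate 1 or lung replicate 2. Cct6b, a subunit known from testis, was at 3.84 ± 0.372, 1.46 ± 0.685 and 0.880 ± 0.256 CPM. Many of these genes overlap a neighbour on the opposite strand (Cct7 and Pradc1, Tcp1 and Mrpl18, Cct8 and Usp16, Cct6a and Psph), and the counts carry a label read here as unstranded.

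Among the 6 BAG cofactors, 1 rose and 2 fell in marrow against culture, 2 rose and 1 fell in lung against culture, and 1 fell in lung against marrow. In the same order, 30.7% of all genes rose and 29.8% fell, 27.9% and 27.0%, and 14.2% and 11.1%. Bag1 was the most abundant at 418 ± 10.2, 455 ± 58.1 and 400 ± 1.65 CPM in culture, marrow and lung and did not pass in any comparison. Bag2, an inhibitor of the ubiquitin ligase CHIP, rose from 124 ± 4.94 CPM in culture to 204 ± 29.4 in marrow (log2 change 0.72, adjusted p = 0.00012) and was 161 ± 21.8 in lung. Its fall in lung against marrow was lost under 8 of the 18 alternatives, 7 of them leaving out 1 library (adjusted p up to 0.16). Against culture the lung calls of Bag2, Bag4 and Bag5 were lost under 4, 4 and 5, and the marrow call of Bag4 under 3. Under DESeq2 and under limma-voom 1 BAG gene rose in lung against marrow. Bag3, the stress-responsive member, was at 56.5, 58.8 and 58.8 CPM in culture, 56.7, 43.9 and 52.5 CPM in marrow, and 51.3, 53.5 and 64.8 CPM in lung, with overlap between all groups and no comparison passing (unadjusted edgeR p 0.12 to 0.74).

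Of the 8 genes with an Hspb symbol, grouped here as small heat shock proteins by that symbol alone, 3 were tested. Hspb6 and Hspb11 fell in both tissues against culture, beside 29.8% of all genes in marrow and 27.0% in lung. Hspb6 was at 16.7, 16.3 and 17.1 CPM in culture, 4.22, 4.12 and 2.39 CPM in marrow, and 5.13, 6.62 and 4.87 CPM in lung. No groups overlapped. Its log2 change was −2.23 ± 0.21 in marrow and −1.59 ± 0.20 in lung against culture (adjusted p = 7.9e-07 and 1.7e-05), and it overlaps Lin37 and Proser3 on the opposite strand. Hspb1 (HSP25), a classical heat shock protein abundant in muscle and epithelium, was below the filter, with 0 reads in each culture library, 8, 0 and 4 reads in marrow and 20, 5 and 8 reads in lung. A count of 0 allows up to 3 reads, or 0.0923 to 0.111 CPM in the culture libraries (counting error only). Hspb8 had 11, 0 and 2 reads in lung and 0 in the other 6 libraries, and lung replicate 1 held the most reads of both genes and the highest sum of lung epithelial markers. The other untested members (Cct8l1, Hspa12a, Dnajb3, Dnajb8, Hspb2, Hspb7 and Hspb9) had at most 18 reads in a group, and Dnajc5b and Dnajc5g had no reads.

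**Figure D5:**
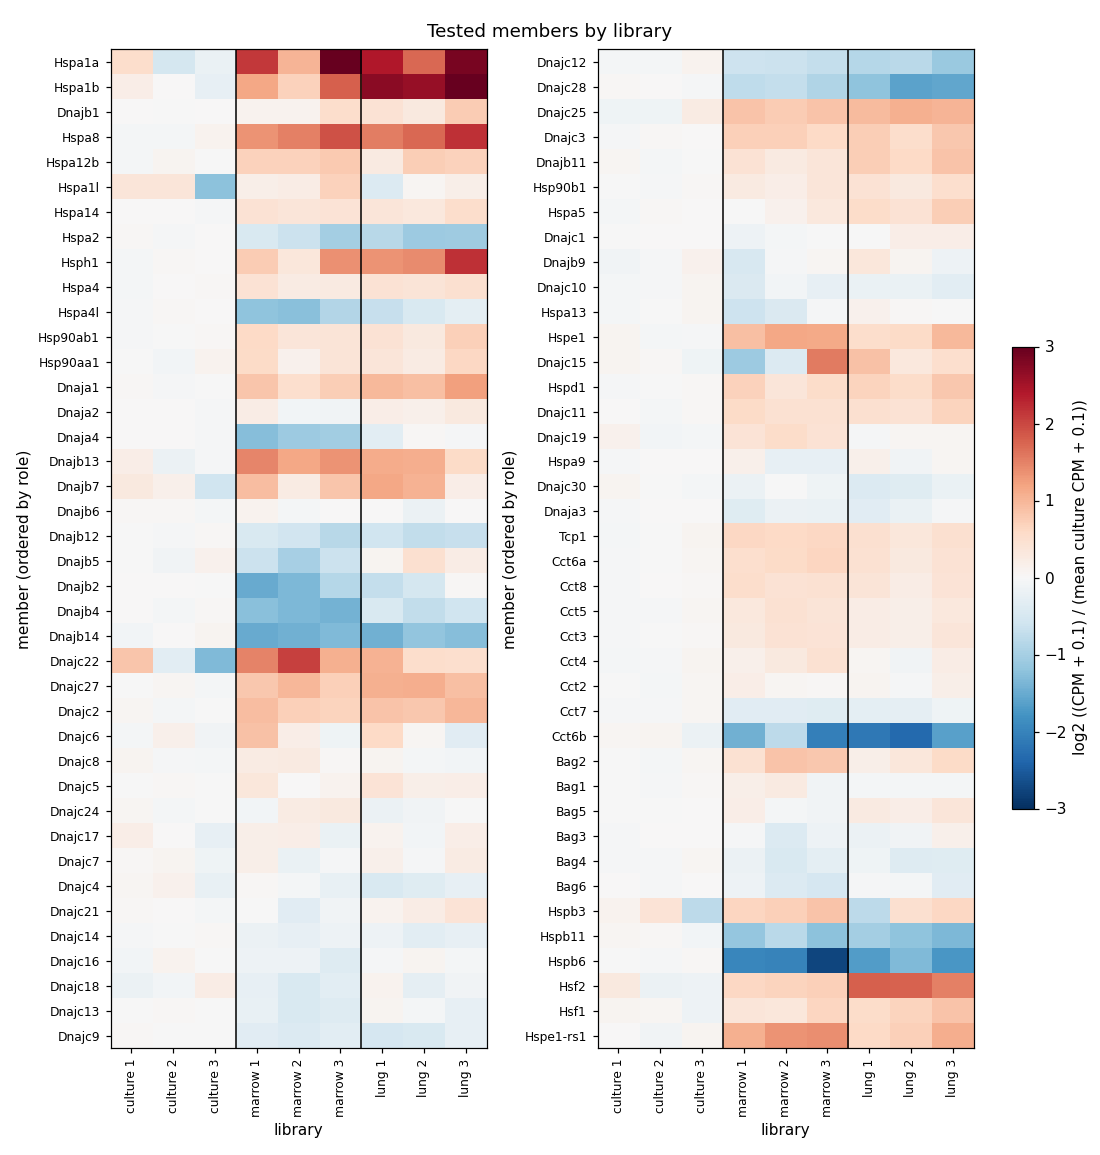
Log2 ratio of CPM to the mean culture level, with 0.1 CPM added to both, for the 80 tested members (rows, by role) in the 9 libraries (columns). Hspa1a, Hspa1b, Hspa8 and Hsph1 are higher in every tissue library than in culture, and Hspb6, Dnajb14 and Hspa4l are lower in every one.

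Of the 10 tested members with the 8 letters in the upstream window, 7 rose and 1 fell in marrow against culture (Cct5, Hsph1, Dnaja1, Dnajc27, Hspa1a, Hspa1b and Hspe1 rose and Dnajc10 fell), with a median log2 change of 0.85. Of the 54 without them, 16 rose and 17 fell, with a median of 0.05. Tested members that have no RefSeq promoter entry, among them Hspa8, Hsp90aa1, Hsp90ab1 and Hsf1, are in neither count. In lung against culture the counts were 7 and 1 (median 0.87) beside 18 and 12 (median 0.09), and in lung against marrow 2 and 1 (median 0.06) beside 11 and 3 (median 0.11). Of all genes tested, 30.7% rose and 29.8% fell in marrow against culture. The shares were 27.9% and 27.0% in lung against culture, and 14.2% and 11.1% in lung against marrow. Hspa1a and Hspa1b, whose windows differ at 3 of 250 bases and whose counts are uncertain, make up 2 of the 10. The falls of Dnajc10 in marrow and in lung against culture were lost under 8 and 9 of the 18 alternatives. The rise of Hsph1 in marrow was lost under 6, and that of Cct5 in lung under 4. Calls were not counted over all genes that have the letters. The counts above are a description of the members in the table, not a test.

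Over the 80 tested members, marrow replicates 1, 2 and 3 were the highest of their group in 37, 16 and 27, and lung replicates 1, 2 and 3 in 23, 10 and 47. Replicate 3 of marrow thus did not lead over the members as a whole. In 17 members, among them Hspa1a, Hspa1b, Dnajb1, Hspa8, Hsph1 and Hsf1, replicate 3 was the highest in both. That is 17 of the 27 and 17 of the 47. The same count was not made over all genes, and whether the 17 exceed what unrelated libraries would give was not tested. Marrow replicate 3 also held the highest sum of neutrophil granule genes (2063 CPM) and lung replicate 3 the highest sum of immediate early genes (2857 CPM). With both of these libraries left out, a choice made after seeing the data, 13 members rose and 6 fell in lung against marrow, 34 and 20 in marrow against culture, and 29 and 17 in lung against culture.

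Proteins that work with the members were counted from 4 lists outside the rule. To set beside all 4 lists, 30.7% of all genes rose and 29.8% fell in marrow against culture. The shares were 27.9% and 27.0% in lung against culture, and 14.2% and 11.1% in lung against marrow. Of 16 HSP70 and HSP90 co-chaperones, 9 rose and 1 fell in marrow against culture, 11 rose and 0 fell in lung against culture, and 1 rose and 1 fell in lung against marrow. Cacybp rose from 241 ± 6.80 CPM in culture to 594 ± 57.3 in marrow and 488 ± 50.5 in lung, and Hspbp1, an HSP70 exchange factor, from 72.1 ± 0.639 to 142 ± 10.04 and 152 ± 10.8. Unc45a, an HSP90 partner for myosin, was at 86.9 ± 3.44, 54.0 ± 3.43 and 89.1 ± 8.62 CPM, low only in marrow.

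Of 14 prefoldin and CCT partner genes, 9 rose and 3 fell in marrow against culture, 4 and 2 in lung against culture, and 0 rose and 4 fell in lung against marrow. Pfdn5, a prefoldin subunit, was at 38.8 ± 2.95, 57.8 ± 6.70 and 44.6 ± 4.03 CPM, and Vbp1, another, fell to 209 ± 23.3 and 166 ± 11.8 from 244 ± 13.5 CPM. Of 16 genes of folding and the unfolded protein response in the endoplasmic reticulum, 9 rose and 4 fell in marrow, 9 and 3 in lung, and 5 and 0 in lung against marrow. Hyou1 rose from 32.6 ± 3.33 CPM in culture to 67.1 ± 3.35 and 68.5 ± 7.83, while Ddit3 (CHOP) fell from 72.2 ± 5.46 to 23.0 ± 1.38 and 42.6 ± 4.89 and Atf4 from 285 ± 15.3 to 113 ± 23.2 and 210 ± 19.8. Of 11 mitochondrial partners and proteases, 5 rose and 2 fell in marrow, 3 and 1 in lung, and 0 and 2 in lung against marrow. Lonp1, the matrix protease, fell from 491 ± 12.7 CPM to 266 ± 36.8 and 281 ± 6.31.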

How the data were processed

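The authors' deposited files hold raw read counts per gene symbol for each library. Per the submitters' processing notes, bcl2fastq, STAR and the mm10 build were used; versions, counting tool and annotation were not given in the sources used here. Per the labels, low-input kits (SMART-seq v4, then ThruPLEX) made the libraries. The counts carry the label unstr, read here as unstranded, so reads of overlapping genes on opposite strands cannot be told apart. Besides the cases given above, this holds for Dnaja1 (Smu1), Dnaja4 (Wdr61) and Dnajc19 (Fxr1), among others. Hspa8, Hspa14 and Dnajb14 overlap gene models on their own strand. Counts were filtered with filterByExpr, scaled with TMM and fitted in 1 edgeR 4.0.16 quasi-likelihood model (robust) on all 9 libraries in R 4.3.3, with Benjamini-Hochberg adjustment over 15066 genes and a threshold of 0.05. The script was tested on simulated data. Coordinates and exon lengths come from GENCODE (90 of 91 members matched by symbol), and promoters from RefSeq. The ± after CPM is the SD over 3 libraries. DESeq2 1.42.0, limma 3.58.1 (voom), other scalings and filters, and leaving out each library were alternatives.

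The named genes were Hspa1a, Hspa1b, Dnajb1, Hspa8, Hsf1 and Hsf2, in each comparison the 8 largest passing rises and falls with groups that do not overlap and at least 10 CPM in the higher group, and the most abundant member of each role per kilobase. From each related list up to 2 passing genes per direction were eligible. Other members named by role were chosen after their values were seen. Members and lists were chosen with earlier results of these data known.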

Additional observations from a re-analysis of the deposited data

How the results depend on the processing

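Over 18 alternatives, 946 of 972 values of the named genes kept their direction and side of the threshold, 19 lost and 5 gained a pass. Hspa1a in lung against marrow turned to −0.28 without marrow replicate 2 (adjusted p = 0.72) and to −0.21 without lung replicate 3 (adjusted p = 0.82), and ranged from −0.28 to 0.77 with 1 library left out. Its levels rest on few reads. Members that fell in lung against marrow numbered 2 with only the 6 libraries compared and 7 with upper-quartile scaling, against 4. The Hspa1a to Hspa8 ratio moved to −0.72 (marrow against culture) and −0.83 (lung against culture) with 1 CPM added. In every culture library Hspa1a lay below the 1 CPM that was added, and Hspa8 lay far above it.

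Leaving out 1 library at a time gave 10 to 17 rises and 2 to 7 falls in lung against marrow, 28 to 32 and 17 to 22 in marrow against culture, and 27 to 35 and 11 to 17 in lung against culture. Hspa1b in lung against marrow stayed between 1.32 and 1.88 on the log2 scale over all alternatives (adjusted p 6.9e-12 to 0.013). Of the calls, 9 of 14 rises and 2 of 4 falls in lung against marrow held under every alternative, as did 28 of 32 and 17 of 22 in marrow against culture, and 27 of 33 and 11 of 16 in lung against culture. Dnajb1 in marrow against culture passed with no filter on low counts (adjusted p = 0.014) and with upper-quartile scaling (0.042).

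Whether the shared replicate numbers pair the libraries is not given in the labels. Correlations of same-numbered deviations from group means were 0.03, 0.27 and 0.09 between marrow and lung and −0.06 to 0.00 between culture and either tissue. Differently numbered marrow and lung libraries gave −0.24 to 0.14. With 3 libraries per group such correlations cannot decide whether libraries are paired. With the replicate block, 16 members rose and 5 fell in lung against marrow, 33 and 22 in marrow against culture, and 33 and 17 in lung against culture, and Dnajb1 passed in marrow against culture (adjusted p = 0.035).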
